A study of Mus musculus with 2 samples.

Results

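Shared first-intron regions are stretches of open chromatin inside the first intron of a protein-coding gene that were found in both libraries of embryonic mouse liver. They were chosen by the presence of peaks in both libraries and by position. The deposited DNase peaks of replicate 1 and replicate 2 were joined wherever they overlapped, even by 1 bp, and joined regions that drew peaks from both libraries are called shared. A shared region is a member if it lies more than 1 kb from every transcript start of a protein-coding gene (GENCODE vM21), and if its midpoint lies outside protein-coding exons and inside the first intron of the longest transcript of such a gene. There were 3120 members among 45831 shared regions, or 6.81% (95% Wilson interval 6.58 to 7.04), and 1920 genes held at least 1. The median member was 222 bp wide.

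The assay was DNase-seq of embryonic liver at 13.5 days. DNase I is an enzyme that cuts accessible DNA, so cuts pile up at enhancers and promoters. Both libraries are labelled with the same mixed C57BL/6N,129 background, wild type with the A85 YAC in multiple copies, so no library without the YAC was compared, and the content of the YAC is not stated by the labels. Replicate 1 and replicate 2 are separate biosamples with 1 donor label and sex not collected. They form 1 group, so no treatment is compared and differences between libraries are given as values with counting intervals and no test.

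The first intron begins next to the promoter and is often the longest intron of a gene. It is a common place for enhancers, which are short stretches where transcription factors bind and act on the promoter of the same or another gene. At this age the fetal liver makes red blood cells. In red cell precursors GATA1, with partners such as TAL1, LDB1 and KLF1, binds many enhancers, some of them in first introns, and GATA factors recognise the letters GATA with a flanking A or T before and A or G after. CTCF is a factor of most cell types that takes part in folding the chromosome.

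The labelled tissue was set against promoters of defining genes, which are not members. Shared promoter regions were present at Gata1, Klf1, Slc4a1 and Epor, genes of the red cell lineage, with signal values of 3.24, 5.29, 10.1 and 16.5 in replicate 1 and 2.10, 2.76, 5.05 and 9.28 in replicate 2. Among genes of hepatocytes and their precursors, the promoter of Afp had 1.40 in replicate 1 and 1.42 in replicate 2, while the promoters of Alb, Hnf4a and Ttr held no shared region. These markers were named after their values were seen. On a wider list of 32 hepatoblast genes 15 had a shared promoter region, against 101 of 103 on lists of red cell genes. The lists held 76130 peaks in replicate 1 and 73852 in replicate 2. The signal value is the deposited value per peak, with a normalization that is not stated. Each library has its own scale, and the median ratio of replicate 1 to replicate 2 over all shared regions was 1.14.

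Sequences of 7 members of red cell genes are shown first because the comparisons below turn on their GATA words. They were read from GRCm38.p6 (mm10) on the plus strand, and capitals mark each AGATAA or AGATAG or TGATAA or TGATAG on either strand. A GATA word on the minus strand is seen here as its complement, such as TTATCT or TTATCA. Alas2, which encodes the first enzyme of heme synthesis in red cells, is shown at chrX:150549661-150549960. Alad, which encodes the next enzyme, is shown at chr4:62516661-62516900. Rhd (chr4:134869441-134869720) encodes a membrane protein of the Rh complex and Dmtn (chr14:70623961-70624180) encodes dematin of the red cell skeleton. Slc25a38 (chr9:120112521-120112818) encodes a mitochondrial glycine carrier needed for heme. Cbfa2t3 (chr8:122666381-122666600) encodes a corepressor that binds with TAL1 and GATA1, and E2f2 (chr4:136177981-136178200) a cell cycle factor active in erythroblasts.
Alas2: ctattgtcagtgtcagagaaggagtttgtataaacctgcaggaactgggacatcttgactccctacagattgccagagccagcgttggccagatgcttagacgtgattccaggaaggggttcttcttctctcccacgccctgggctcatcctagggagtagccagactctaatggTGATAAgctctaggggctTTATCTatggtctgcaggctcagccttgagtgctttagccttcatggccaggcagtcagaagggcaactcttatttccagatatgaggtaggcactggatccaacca
Alad: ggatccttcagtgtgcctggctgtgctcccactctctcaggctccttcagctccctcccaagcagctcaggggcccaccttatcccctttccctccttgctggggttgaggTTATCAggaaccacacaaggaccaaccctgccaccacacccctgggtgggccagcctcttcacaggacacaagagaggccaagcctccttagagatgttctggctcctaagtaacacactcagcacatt
Rhd: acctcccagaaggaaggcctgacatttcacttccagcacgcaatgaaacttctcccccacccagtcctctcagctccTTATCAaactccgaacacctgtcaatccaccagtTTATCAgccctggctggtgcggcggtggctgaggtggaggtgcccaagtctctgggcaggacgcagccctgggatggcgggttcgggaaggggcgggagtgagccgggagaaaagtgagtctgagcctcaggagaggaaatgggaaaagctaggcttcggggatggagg
Dmtn: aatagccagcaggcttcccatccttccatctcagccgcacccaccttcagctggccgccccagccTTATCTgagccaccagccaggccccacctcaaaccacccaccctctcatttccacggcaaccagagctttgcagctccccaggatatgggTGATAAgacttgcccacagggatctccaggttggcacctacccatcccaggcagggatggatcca
Slc25a38: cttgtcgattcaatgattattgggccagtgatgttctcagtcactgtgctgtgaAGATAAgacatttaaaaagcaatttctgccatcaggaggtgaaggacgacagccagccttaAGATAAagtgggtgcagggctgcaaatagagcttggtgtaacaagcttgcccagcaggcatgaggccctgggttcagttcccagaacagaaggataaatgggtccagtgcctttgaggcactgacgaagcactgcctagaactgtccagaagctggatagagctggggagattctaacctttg
Cbfa2t3: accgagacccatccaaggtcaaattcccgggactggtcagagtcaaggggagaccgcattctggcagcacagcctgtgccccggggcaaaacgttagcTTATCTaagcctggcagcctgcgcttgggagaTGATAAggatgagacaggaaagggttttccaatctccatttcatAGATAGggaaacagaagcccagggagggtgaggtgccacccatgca
E2f2: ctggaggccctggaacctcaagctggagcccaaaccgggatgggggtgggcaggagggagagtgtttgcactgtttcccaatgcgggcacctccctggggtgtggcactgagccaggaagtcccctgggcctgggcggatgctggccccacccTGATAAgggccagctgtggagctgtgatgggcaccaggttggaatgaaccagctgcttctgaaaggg

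These 7 regions were picked for holding a GATA word, so that each has at least 1 is no result. They held between 1 and 3 each. In Alas2 the 2 words lie close together, 1 on each strand, and 1 of them lay for at least 50% of its bases in a footprint common to both libraries, a footprint being a short protected stretch within open chromatin. Both words of Rhd and the word of E2f2 lay in common footprints, and so did 1 of 2 words in Slc25a38 and 1 of 3 in Cbfa2t3. The word of Alad and the 2 words of Dmtn did not, although these regions held 5 and 2 common footprints.

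The second set shows the member with the largest ratio of replicate 1 to replicate 2, in Gpcpd1 (chr2:132573401-132573580), and 2 regions with a CTCF word. The first of those is the highest region of Ccnd3 (chr17:47511201-47511440), a gene for cyclin D3, and the second lies in Ptprt (chr2:162659101-162659320), a receptor phosphatase gene, and is among the members highest in replicate 2 relative to replicate 1. Capitals mark GATA words in Gpcpd1 and AGGGGGC or AGGTGGC or AGATGGC on either strand in Ccnd3 and Ptprt. None of the marked words in these 3 regions lay in a common footprint.
Gpcpd1: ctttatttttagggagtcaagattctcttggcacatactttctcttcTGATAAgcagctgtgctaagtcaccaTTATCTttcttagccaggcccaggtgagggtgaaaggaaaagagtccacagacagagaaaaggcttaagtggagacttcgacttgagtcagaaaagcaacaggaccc
Ccnd3: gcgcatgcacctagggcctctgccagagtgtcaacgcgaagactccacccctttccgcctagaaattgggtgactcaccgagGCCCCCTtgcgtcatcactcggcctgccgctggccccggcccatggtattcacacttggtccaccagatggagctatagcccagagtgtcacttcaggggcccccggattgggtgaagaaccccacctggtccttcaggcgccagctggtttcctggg
Ptprt: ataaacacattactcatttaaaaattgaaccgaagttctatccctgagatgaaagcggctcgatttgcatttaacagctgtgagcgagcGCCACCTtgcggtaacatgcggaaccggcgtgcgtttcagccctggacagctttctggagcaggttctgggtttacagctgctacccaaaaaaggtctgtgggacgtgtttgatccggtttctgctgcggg

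Most genes with a member had just 1. Of the 20385 protein-coding genes with a first intron, 1920 held a member (9.42%), of which 1318 had 1 region, 342 had 2, 142 had 3 and the rest had more. Length went with presence. The first intron had a median of 20137 bp in genes with a member and 2268 bp in genes without one. A member was found in 0.278% of genes with a first intron under 2 kb, 11.4% at 5 to 10 kb, 30.6% at 20 to 50 kb and 42.0% above 100 kb. Introns under 2 kb leave little or no room more than 1 kb from a start.

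First introns were denser in shared regions than later introns near a start and not far from one. Here and below, later introns are all other stretches of protein-coding genes outside exons. They include first introns of transcripts other than the longest. With the first introns of any protein-coding transcript there were 4275 regions instead of 3120, so the 2 classes are not cleanly parted. Over all distances there were 14.6 regions per Mb of first intron (95% Poisson interval 14.1 to 15.2), against 11.6 per Mb of later intron (11.3 to 11.8). At 1 to 2 kb from the nearest protein-coding start, first introns held 39.7 per Mb (36.7 to 42.8) and later introns 23.1 (21.5 to 24.8). At 2 to 5 kb the densities were 21.4 (19.9 to 23.1) in first introns and 17.8 (16.9 to 18.7) in later introns. From 5 to 10 kb the intervals overlapped, at 13.8 to 16.4 in first introns and 14.5 to 16.1 in later introns, and at 20 to 50 kb first introns were lower, with 9.02 (8.13 to 9.98) against 10.9 (10.4 to 11.5). Bases found only in the first intron of Gm20388, a very long model described below, were left out of these densities. With Gm20388 left out as a host gene, the median distance of a member from the start of its own gene was 9372.5 bp.

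**Figure D1:**
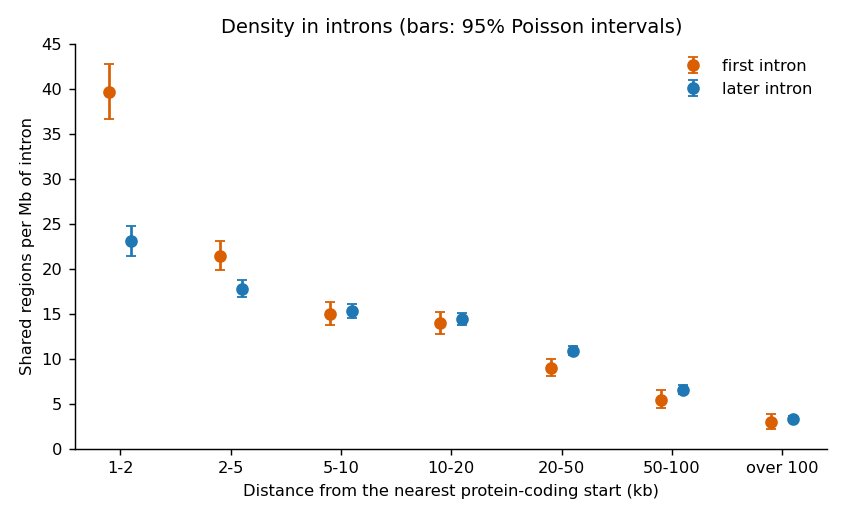
Shared regions per Mb of intron (vertical axis) by distance from the nearest protein-coding transcript start in kb (horizontal axis), with first introns left of later introns and bars for 95% Poisson intervals. First introns stand above later introns at 1 to 2 kb, with 39.7 against 23.1 per Mb, and the classes overlap at 5 to 20 kb.

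The limit of 1 kb cut through a continuum. Members at 1001 to 1500 bp from the nearest start (420 regions) had median values of 1.07 in replicate 1 and 0.927 in replicate 2. Regions in the same introns at 501 to 1000 bp (885, classed as promoter) had 0.962 in replicate 1 and 0.887 in replicate 2.

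By number, the rule puts Gm20388 first, and this rank follows from the gene model. Its annotated first intron is 4384418 bp long (chr8:119910940-124295357) and holds the starts of 72 other protein-coding genes, and the next longest first intron is 869870 bp. Of its 167 members, 31 also lay in the first intron of another gene, and 88 lay inside another gene in all, while 79 lay in no other gene. Gse1 had 40 of them within its bounds, Zfpm1 10 and Piezo1 7. Without this intron 2984 members in 1919 genes remain. Gm20388 is set apart in the account of single genes that follows, but shares and medians over all members include its regions unless stated.

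After Gm20388, Pitpnc1 and Ccdc6 led with 10 members each, though the order depends on the peak list and the transcript. With the shorter peak lists Pitpnc1 had 8, Ccdc6 5, Sptb 3 and Stk24 3, and with the first introns of any protein-coding transcript Maml3 had 15. Pitpnc1 encodes a phosphatidylinositol transfer protein. Its regions lay 1408 to 85238 bp from the start in an intron of 132330 bp, 7 of 10 held a GATA word, and the region of 620 bp nearest its start had 3.44 in replicate 1 and 3.35 in replicate 2. Ccdc6 encodes a coiled-coil protein, and its 10 regions were low, with a highest region of 1.99 in replicate 1 and 1.65 in replicate 2. Arhgap23, a gene for a GTPase activating protein, had 9 regions within 28516 bp, the highest with 6.10 in replicate 1 and 4.21 in replicate 2. Maml3, for a coactivator of Notch signalling, also had 9, in an intron of 246602 bp, and its highest region had 2.81 in replicate 1 and 2.32 in replicate 2.

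Ccnd3, Nol4l and Sptb had 8 members each. Cyclin D3 drives the divisions of erythroblasts, and the 8 regions of its gene ran from 0.392 to 17.0 in replicate 1 and from 0.676 to 14.1 in replicate 2. The highest, with the CTCF word shown above, lies 6270 bp from the start of the gene and had 5 common footprints, none with at least 50% of its CTCF word, while 5 of the 8 held a GATA word. Sptb encodes the beta spectrin of the red cell skeleton. Of its 8 regions 4 lay within 35306 to 39756 bp of the start, each with GATA words, and 2 of these stood out, with 5.53 and 4.52 in replicate 1 and 2.05 and 2.00 in replicate 2. The other 2 of these 4 had 0.937 and 0.721 in replicate 1 and 0.887 and 0.954 in replicate 2. The next Sptb regions on either side, at 33888 and 40349 bp from the start, held no GATA word. Highest of Nol4l was a region 3840 bp from its start, with 5.57 in replicate 1 and 3.17 in replicate 2.

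The remaining genes with the most members had 7 each. They were Gm42906, Lipc, Sertad2, Chst11, Stk24, Prkce and Macf1, and Rbm20 and Slc44a5 had 7 as well, with a lower highest region. In Gm42906 a single region stood far above the rest, with 19.9 in replicate 1 and 13.8 in replicate 2. The next had 3.68 in replicate 1 and 1.50 in replicate 2. Lipc encodes hepatic lipase, and its highest region, 99817 bp from the start with a CTG and GATA pair, had 11.2 in replicate 1 and 7.96 in replicate 2. Prkce, for protein kinase C epsilon, and Chst11, for a chondroitin sulfotransferase, had GATA words in 6 of 7 regions each. Alad reached 6 members in an intron of only 5534 bp, where the genes above spread theirs over 28516 bp or more. Agrp also had 6, in a model of 52902 bp that contains the starts of 2 other genes.

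**Figure D2:**
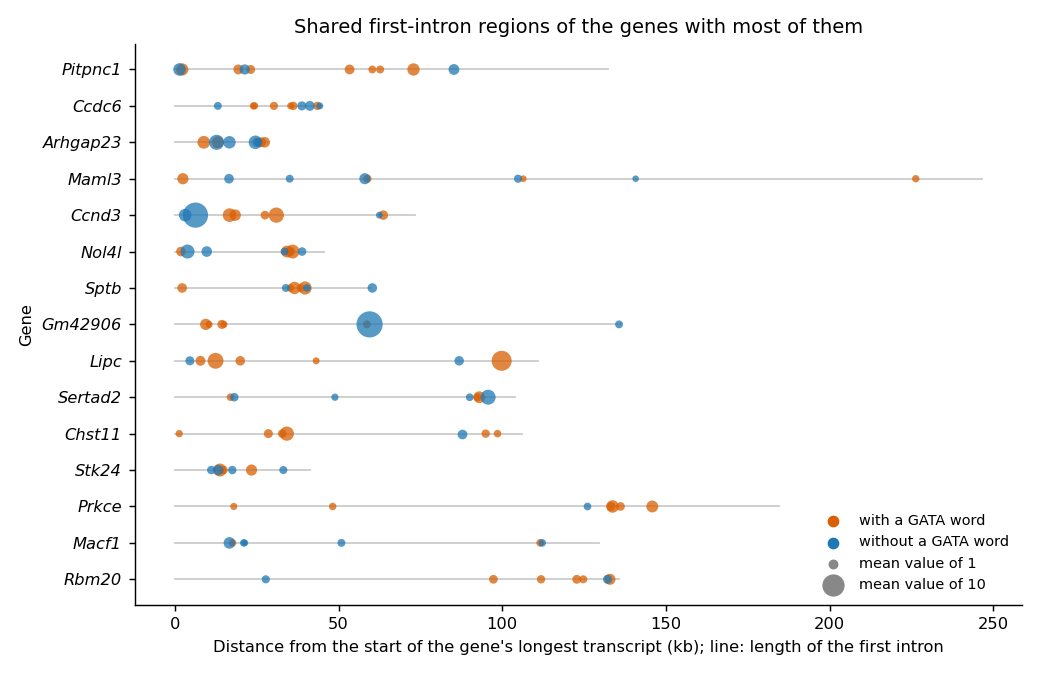
Position of each shared first-intron region along the gene, as the distance in kb from the start of its longest transcript (horizontal axis), for the 15 genes with most regions after Gm20388 (rows). Grey lines give the length of the first intron, dot area the mean value of the replicates, and colour whether the region holds a GATA word. Ccnd3 and Gm42906 each have 1 region far above their others.

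Members were weaker than promoter regions and a little less often found in both libraries than other distal regions. Of 8760 first-intron regions of either library, 35.6% had peaks of both (34.6 to 36.6) and the rest had 3327 regions found just in replicate 1 and 2313 just in replicate 2. The share in both was 39.7% for later introns, 39.8% for intergenic regions and 60.6% for promoters. The median value of members was 1.20 in replicate 1 (quartiles 0.747 and 2.13) and 0.899 in replicate 2 (0.616 and 1.48). Promoters had medians of 2.62 in replicate 1 and 2.40 in replicate 2. These values stand for a median of 95 counts a member in replicate 1 and 149 in replicate 2. Across members the log2 values of the libraries had a Pearson correlation of 0.813, given as a description over 3120 regions that share their libraries.

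The highest members came from genes of several kinds. Among members whose median 31-base word occurs only 1 time in the assembly, Gm42906 stood first by the mean of its ranks in the libraries. Mnt, for a repressor that pairs with MAX, followed with 18.6 in replicate 1 and 12.4 in replicate 2, at 1381 bp from its start. Nr1d1, for the clock repressor REV-ERB alpha, had 17.0 in replicate 1 and 10.8 in replicate 2. Dlg4, a synaptic scaffold gene, had 12.3 in replicate 1 and 9.41 in replicate 2. Regions of Elmsan1 had 11.5 in replicate 1 and 8.87 in replicate 2, and of Zfp13 10.9 in replicate 1 and 8.83 in replicate 2. The Ccnd3 region described above also ranks among these 10, and the remaining 3 lay in the Gm20388 model and in no other first intron. Of 2 members of repeated sequence, 1 ranked above all of these and the other between Gm42906 and Mnt, and how reads that match several places were treated is not stated. A region in Il31ra had 51.8 in replicate 1 and 39.9 in replicate 2, and a region in the first introns of Cmss1 and Filip1l had 17.3 in replicate 1 and 20.7 in replicate 2.

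GATA words were more frequent in members than in any other class of shared region. In a window of 200 bp around the midpoint, 42.0% of members held 1 or more (95% Wilson interval 40.3 to 43.8), against 37.5% in later introns (36.4 to 38.6), 31.1% in intergenic regions and 13.6% in promoters. In windows 1000 bp to either side of members the share was 28.6%. Close to a start the word was less frequent, in 30.5% of the 420 members at 1001 to 1500 bp from the nearest start. It was in 29.5% of the regions in first introns at 501 to 1000 bp, classed as promoter, and in 44.2% of members more than 2.5 kb from every start. A GATA word preceded at 7 or 8 bases by CTG, the paired arrangement bound by TAL1 and GATA1, was found in 8.08% of members and 1.44% of the side windows. This pair was in 7.33% of later intron and 4.89% of intergenic regions. The KLF word CACACCC was in 10.5% of members, against 8.68% in later introns, 7.45% in intergenic regions and 5.02% of the side windows. Among promoters of RefSeq genes, 300 bases each, 29.8% held a GATA word, 1.77% the CTG and GATA pair and 7.95% the KLF word.

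CTCF words showed the opposite order among regions away from promoters. They were in 23.2% of members (21.8 to 24.8), against 32.5% in later introns (31.5 to 33.6) and 33.4% in intergenic regions, with 11.6% in the side windows of members and 21.4% of RefSeq promoters. The searched letters, as above, were AGGGGGC or AGGTGGC or AGATGGC. Among words of liver factors, FOXA and HNF4 words were near the level of the side windows and the HNF1 word was rarer than there. FOXA (TGTTTAC or TGTTTGC) was in 6.35% of members and 5.71% of side windows, HNF4 (CAAAGTC) in 2.88% and 2.61%, and HNF1 (GTTAAT) in 3.59% and 6.28%. Members had a median GC content of 52% and their side windows 47%, and the part of base composition in these shares was not tested.

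**Figure D3:**
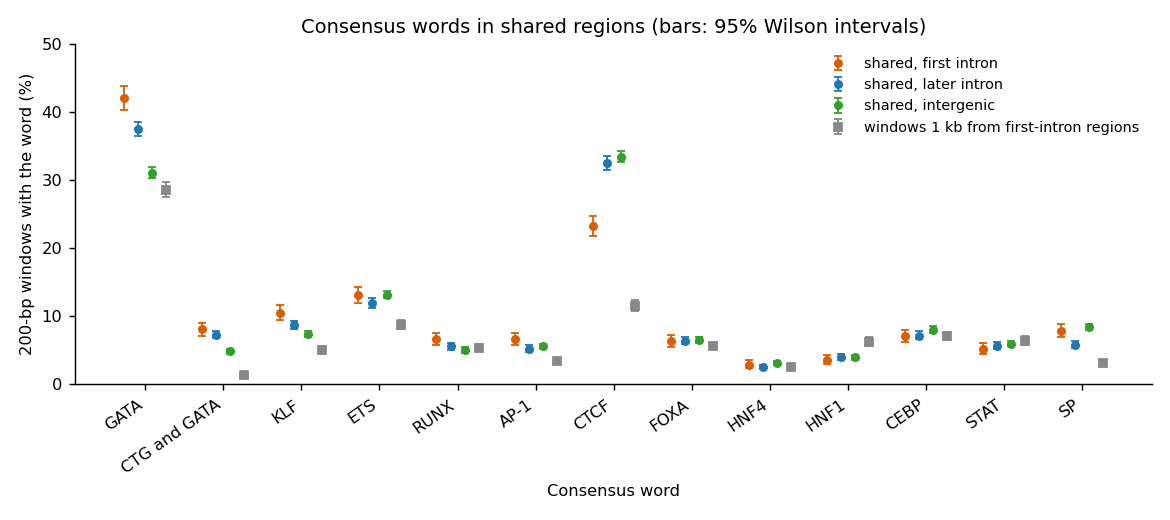
Share of windows of 200 bp, in percent, that hold each of 13 consensus words (horizontal axis) in shared first-intron, later intron and intergenic regions, and in windows 1 kb from the first-intron regions (grey squares). Bars are 95% Wilson intervals. The GATA word is highest in first introns at 42.0%, and the CTCF word is lower there, at 23.2%, than in later introns or intergenic regions.

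Footprints found in both libraries covered fewer members than other distal regions. A common footprint was present in 58.6% of members (56.9 to 60.3), 65.5% of later intron and 65.7% of intergenic regions. The share moved with the signal, at 41.8% of members with a value of 0.5 to 1 (geometric mean of the replicates), 71.5% at 1 to 2 and 90.2% at 2 to 5. At the same values it was 54.5%, 84.7% and 94.7% in later introns. Of 978 CTCF words in members, 28.7% lay in a common footprint, against 42.0% in later introns. Of 2448 GATA words in members 6.33% did. Common footprints covered 4.48% of the bases of members and 6.31% of the bases of later intron regions. SP words (GGGCGGG), the letters of general promoter factors, lay in one in 26.3% of cases.

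Relative to the scale of all regions, members were higher in replicate 1. Their median ratio of replicate 1 to replicate 2 was 1.28 (quartiles 0.963 and 1.80), against 1.22 in later introns, 1.15 in intergenic regions and 1.10 in promoters. After the ratio was divided by its median of 1.14 over all shared regions, 373 members (12.0%) were at least 2-fold higher in replicate 1, where 5.64% of all shared regions were. At least 2-fold higher in replicate 2 were 58 members (1.86%), against 3.02% of all shared regions.

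The ratio went with GATA words. Members with a GATA word in the window had a median ratio of 1.69 (quartiles 1.24 and 2.20) and members without one 1.10 (0.878 and 1.46). By the number of words in the whole region, the median ratio was 1.07 for 0 words, 1.50 for 1, 1.77 for 2 and 2.03 for 3 or more. The widths of these groups also differed, with medians of 200, 254, 300 and 350 bp. The medians in replicate 1 were 1.03, 1.24, 1.59 and 1.92 in the same order, and those in replicate 2 were 0.911, 0.839, 0.942 and 0.975. Members with more words thus had higher medians in replicate 1 and nearly level medians in replicate 2. Both the median ratio and the share with a GATA word also rose with signal up to a value of 5 (geometric mean of the replicates). They were 1.20 and 39.4% at 0.5 to 1, 1.40 and 44.9% at 1 to 2, and 1.53 and 48.3% at 2 to 5. Above 5 they were 1.41 and 37.0%. The part of signal strength in the ratio was not tested. A GATA word was in 77.5% of the 373 members higher in replicate 1 and in 12.1% of the 58 higher in replicate 2. The pattern was not particular to first introns: in later introns the median ratio was 1.56 with a GATA word and 1.09 without.

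The CTG and GATA pair and other words went with the ratio as well. The ratio was 2.02 with the pair and 1.24 without, 1.65 with an AP-1 word (TGACTCA or TGAGTCA) and 1.27 without, and 1.55 with the KLF word and 1.26 without. CTCF words went the other way, with 1.12 against 1.37 without. Members with a CTCF word and no GATA word had 1.04, and members with a GATA word and no CTCF word 1.72.

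Promoters of the listed genes, which are not members, differed in ratio between lists. Over 4 lists of red cell genes the shared promoter regions had a median ratio of 1.30, and 71 of 101 lay above the median of all shared regions. The terminal maturation list among them had 1.13, with 11 of 23 above it. Housekeeping genes had 1.23 (14 of 20) and megakaryocyte genes 1.21 (8 of 11), and all promoter regions with a value above 5 had 1.25, so a ratio above the median was not particular to red cell genes. Over the hepatoblast list the median was 0.912 with a range of 0.433 to 1.52, and 1 of 15 lay above it. Stellate and mesenchymal genes had 0.788 (0 of 9 above it), endothelial genes 0.846 (1 of 5) and macrophage genes 1.38 (4 of 6). The hepatoblast promoters were weak, with median values of 0.975 in replicate 1 and 1.07 in replicate 2. All promoter regions with a value of 0.5 to 1 had a ratio of 0.893, and those of 1 to 2 had 0.933. A ratio below the median was thus not particular to these lists either. In bulk tissue a larger share of cells of a type and more open chromatin per cell cannot be told apart. The part of cell makeup in the ratio of the members was not tested.

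**Figure D4:**
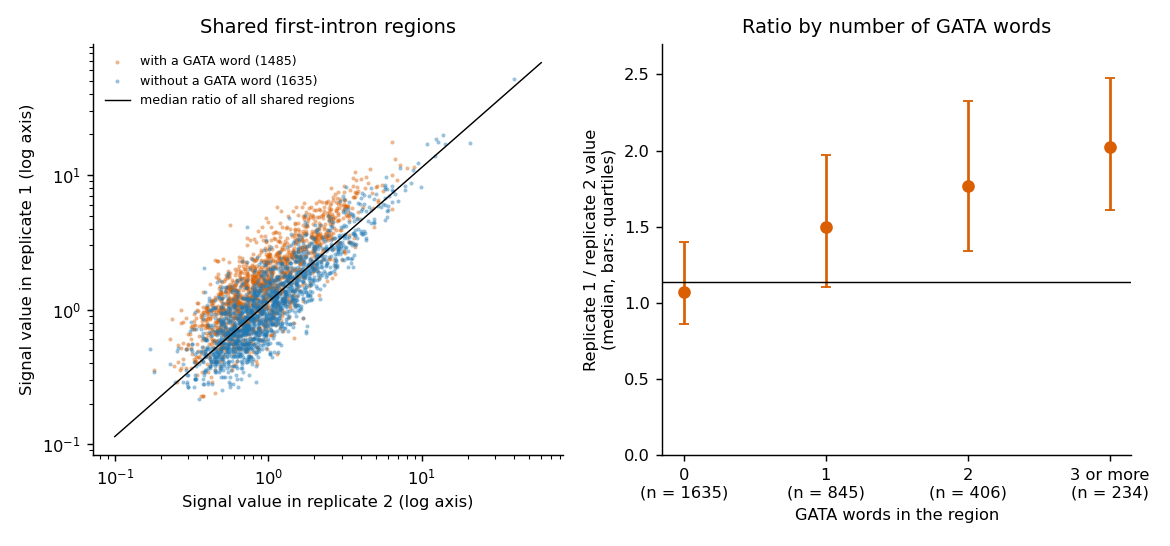
Left, signal value of each shared first-intron region in replicate 1 (vertical, log axis) and replicate 2 (horizontal, log axis), coloured by whether the region holds a GATA word, with a line at the median ratio of all shared regions, 1.14. Right, median replicate 1 to replicate 2 ratio with quartile bars by number of GATA words, from 1.07 for 0 words to 2.03 for 3 or more.

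Among members with at least 50 counts in each library, the largest ratio was in Gpcpd1, for a glycerophosphocholine phosphodiesterase. Its region, shown above with 2 GATA words, had 4.24 in replicate 1 (95% Poisson interval 3.80 to 4.72) and 0.561 in replicate 2 (0.453 to 0.688), a ratio of 7.55. Usp32, for a ubiquitin protease, had 4.10 in replicate 1 (3.67 to 4.57) and 0.730 in replicate 2 (0.606 to 0.873). Slc39a10, for a zinc importer, had 2.04 in replicate 1 (1.74 to 2.38) and 0.380 in replicate 2 (0.292 to 0.487). These last 2 regions held no GATA word.

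At the other end the ratios were smaller in size. A count stands for a value of 0.0127 in replicate 1 and 0.00604 in replicate 2, so the limit of 50 counts is a higher value in replicate 1. It thus leaves less room for ratios in this direction, and its part in the difference was not tested. Ptprt, shown above with its CTCF word, had 0.696 in replicate 1 (0.524 to 0.906) and 1.76 in replicate 2 (1.56 to 1.97). Fat1, for a giant cadherin, had 0.759 in replicate 1 (0.580 to 0.978) and 1.77 in replicate 2 (1.58 to 1.99). Neither of these regions held a GATA word.

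Genes of red cell function held members far more often than genes of other cell types. Over 4 lists with 102 genes that have a first intron, 46 held a member, or 45.1% (35.8 to 54.8), with 103 regions in all, where 9.42% of all genes did. At more than 2.5 kb from every start the shares were 27.45% of red cell genes and 6.75% of all genes. Over 9 lists of other cell types and housekeeping genes 16 of 176 did (9.09%). Intron length differed between these sets, with medians of 4381.5 bp in the red cell lists and 1741 bp in the others. Among genes with a first intron over 10 kb, 26 of 31 red cell genes and 11 of 32 others held a member, and 28.7% of all such genes did. By list these were 9 of 9 transcription factors, 10 of 10 membrane genes, 4 of 8 heme genes and 3 of 4 maturation genes. Of the other lists, stellate and mesenchymal genes had 2 of 2, megakaryocyte and stem cell genes 2 of 4 each and hepatoblast genes 2 of 5. Neural genes had 2 of 7, endothelial genes 1 of 7, housekeeping genes 0 of 2 and macrophage genes 0 of 1. Of the 56 red cell genes without a member, 38 had a first intron under 2 kb. A GATA word anywhere in the region was present in 69 of the 103 regions (67.0%), against 47.6% of all members. Their median ratio was 1.53, against 1.28 for all members. At least 2-fold higher in replicate 1 were 20 of them (19.4%), against 12.0% of all members, and 0 were so in replicate 2. The 103 regions were also stronger, with medians of 2.35 in replicate 1 and 1.49 in replicate 2, against 1.20 and 0.899 for all members. All members with a value of 1 to 2 (geometric mean of the replicates) had a median ratio of 1.40, and those of 2 to 5 had 1.53. The part of signal strength in these differences was not tested.

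**Figure D5:**
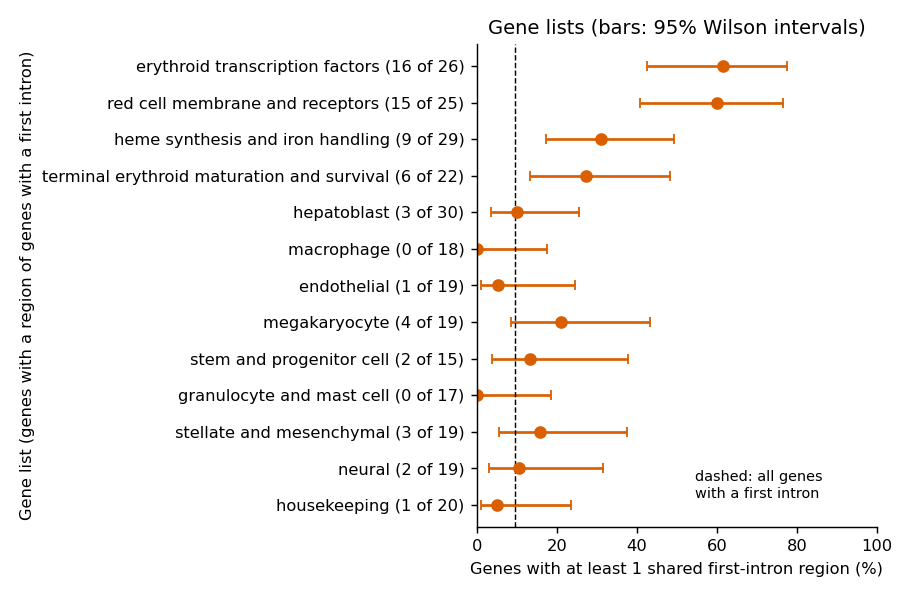
Percent of genes with at least 1 shared first-intron region (horizontal axis) for 13 gene lists (rows), with 95% Wilson intervals and the number of genes. The dashed line marks all genes with a first intron, 9.42%. The first 4 rows, lists of red cell genes, lie between 27.3% and 61.5%.

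Among transcription factors and cofactors of red cells, 16 of 26 genes held a member. Zfpm1, which encodes the GATA1 partner FOG1, had 4, the highest with 8.26 in replicate 1 (7.64 to 8.92) and 5.08 in replicate 2 (4.74 to 5.44) and a CTG and GATA pair, and the widest of 1040 bp with 8 GATA words. E2f2 had 3, led by the region shown above with 8.49 in replicate 1 (7.86 to 9.16) and 5.51 in replicate 2 (5.16 to 5.88). Cbfa2t3 had 2, each with a CTG and GATA pair, with 5.25 and 5.86 in replicate 1 and 2.42 and 3.22 in replicate 2. Gfi1b, for a repressor needed in erythroid cells, had 1 with 5.08 in replicate 1 and 3.36 in replicate 2.

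The other factors had lower members. Bach1, for a heme-sensing repressor, had 3 with 1.90 to 4.48 in replicate 1 and 1.20 to 2.66 in replicate 2. Klf3, for a repressor of the KLF family, had 4 with 0.772 to 4.08 in replicate 1 and 0.857 to 3.05 in replicate 2. Ldb1, for the factor that bridges GATA1 complexes, had 3, of which the highest had 3.61 in replicate 1 and 1.56 in replicate 2 and the only GATA words. Gata1 itself had 2 weak regions, with 0.595 and 0.481 in replicate 1 and 0.471 and 0.755 in replicate 2, and the second held 4 GATA words. Bcl11a, for a repressor of globin genes, was higher in replicate 2, with 1.19 in replicate 1 and 1.91 in replicate 2. Klf13, Stat5b, Myb, Mafg, Ikzf1, Nfe2l2 and Sox6 had between 1 and 3 members, none above 3.71 in replicate 1. Tal1, Klf1, Lyl1, Nfe2, Lmo2, Zbtb7a, Foxo3, Tcf3, Mafk and Stat5a had none, and 6 of these 10 have a first intron under 2 kb.

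In the membrane and receptor list 15 of 25 genes held a member. Rhd had 3, and the region shown above had 9.70 in replicate 1 (9.02 to 10.4) and 4.35 in replicate 2 (4.03 to 4.68). The single region of Dmtn had 8.68 in replicate 1 (8.04 to 9.36) and 4.48 in replicate 2 (4.16 to 4.81). Gypc, for glycophorin C, had 5, with 2.43 to 8.32 in replicate 1 and 1.04 to 3.13 in replicate 2, and all 5 were higher in replicate 1 by more than the median ratio of all regions. Tmod1, for tropomodulin that caps actin at the membrane, had 3, the highest with 6.78 in replicate 1 and 2.80 in replicate 2.

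Ank1, for the ankyrin that ties spectrin to the membrane, shows how regions of 1 intron can differ. A region without a GATA word but with a CTCF word had 7.19 in replicate 1 (6.61 to 7.81) and 6.73 in replicate 2 (6.34 to 7.14). Another in the same intron, with 3 GATA words and a CTG and GATA pair, had 7.49 in replicate 1 and 2.84 in replicate 2. Their ratios were 1.07 and 2.64. The 2 other regions of Ank1 had 5.73 and 3.06 in replicate 1 and 4.82 and 1.49 in replicate 2. Members of Aqp1, Add1, Add2, Cd47, Cd44, Tfrc, Rhag and Xk had at most 3.47 in replicate 1. Genes without a member included Slc4a1, Epb41, Epb42, Kel, Ermap, Icam4, Mpp1, Tspo2 and Epor, and 8 of the 10 without one have a first intron under 2 kb.

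In heme synthesis and iron handling 9 of 29 genes held a member, with 18 regions. Alad led, with 6 members of which the region shown above had 17.5 in replicate 1 (16.6 to 18.5) and 6.36 in replicate 2 (5.98 to 6.76). Its other 5 ran from 0.886 to 2.92 in replicate 1 and from 0.706 to 2.21 in replicate 2. The single region of Alas2 had 3.92 in replicate 1 (3.50 to 4.39) and 1.50 in replicate 2 (1.32 to 1.70). In Fech, for the enzyme that puts iron into heme, the single region had 5.78 in replicate 1 (5.27 to 6.34) and 1.13 in replicate 2 (0.978 to 1.31), a ratio of 5.10. The Slc25a38 region shown above had 3.37 in replicate 1 and 1.65 in replicate 2, and a second had 3.54 in replicate 1 and 2.40 in replicate 2.

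The other genes of this list act in iron release, transport and heme breakdown. Ncoa4, for the receptor that delivers ferritin to autophagy, had a highest region with 5.76 in replicate 1 (5.24 to 6.31) and 1.52 in replicate 2 (1.34 to 1.72) and 2 CTG and GATA pairs. Slc11a2, for an iron importer, had 1 region of 1256 bp with 3.68 in replicate 1 and 1.08 in replicate 2. Blvrb, for a biliverdin reductase, had 2.06 in replicate 1 and 1.03 in replicate 2. Slc48a1, for a heme transporter, and Abcb10, of the mitochondrial inner membrane, had 2 each. Their higher regions had 4.29 and 3.84 in replicate 1 and 2.54 and 2.51 in replicate 2, and their lower ones 0.835 and 0.785 in replicate 1 and 0.948 and 1.16 in replicate 2. The lower ones held no GATA word.

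Genes of terminal maturation held members in 6 of 22 cases. Trim58, for a ubiquitin ligase of enucleating erythroblasts, had 1 with 8.11 in replicate 1 (7.50 to 8.77) and 3.22 in replicate 2 (2.95 to 3.50) and no GATA word. Ube2o, for the enzyme that marks ribosomal proteins for removal in reticulocytes, had 3 with 2.84 to 4.96 in replicate 1 and 1.01 to 2.94 in replicate 2. Xpo7, for an exportin of maturing erythroblasts, had 3.42 in replicate 1 and 1.09 in replicate 2. Rb1 had 1.84 in replicate 1 and 0.549 in replicate 2, and Kmt5a 1.04 in replicate 1 and 0.670 in replicate 2. The remaining member gene of this list is Ccnd3.

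Lists of other cell types held members about as often as all genes, with median values over their 20 regions of 1.15 in replicate 1 and 0.821 in replicate 2. Hepatoblast genes held 1 member each in Onecut1, Nr1h4 and Krt8 (3 of 30 genes), with at most 0.721 in replicate 1 and 0.863 in replicate 2. Macrophage genes had 0 of 18 and granulocyte and mast cell genes 0 of 17, and all 17 genes of the granulocyte and mast cell list have a first intron under 2 kb. Megakaryocyte genes had 4 of 19, led by Tubb1, for a platelet tubulin, with 4.56 in replicate 1 and 2.57 in replicate 2. Stem cell genes had 2 of 15, and the region of Flt3 had 2.42 in replicate 1 and 0.670 in replicate 2. Among neural genes Mbp had 4, the highest with 5.32 in replicate 1 and 3.33 in replicate 2, and Cntnap2 had 1. Members of the stellate list lay in Reln, Ngfr and Alcam, of the endothelial list in Flt4 and of the housekeeping list in Psmb2.

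Member genes usually had an open promoter as well. Outside Gm20388, 1582 of 1919 host genes had a shared promoter region (82.4%, 80.7 to 84.1), against 60.6% of all genes with a first intron. The highest member of such a gene had a median of 1.35 in replicate 1 and 0.911 in replicate 2, and its highest promoter region 5.90 in replicate 1 and 5.09 in replicate 2. In 140 genes (8.85%) the member was above the promoter in both libraries. The member had the higher ratio of replicate 1 to replicate 2 in 1091 genes (69.0%), with medians of 1.42 for members and 1.16 for promoters. First introns had a median of 20137 bp in genes with a member and 2765 bp in all genes with a first intron. The part of intron length in the share of 82.4% was not tested.

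Among red cell genes only Trim58, Gfi1b, Dmtn, Rhd, Aqp1 and Ccnd3 had their highest member above the promoter in both libraries. Over all host genes with a shared promoter region 8.85% did, and a difference between these shares was not tested. In Trim58 the member had 8.11 in replicate 1 and 3.22 in replicate 2, and the promoter 2.49 in replicate 1 and 2.57 in replicate 2. In Gfi1b the promoter had 2.37 in replicate 1 and 1.97 in replicate 2, under the member values given above. Dmtn and Rhd had 6.11 and 6.57 in replicate 1 and 4.13 and 3.91 in replicate 2 at the promoter, also under their highest members. Aqp1, for a water channel, had 3.16 in replicate 1 and 2.28 in replicate 2 in the intron, and 1.43 in replicate 1 and 1.10 in replicate 2 at the promoter. At Ccnd3 the promoter had 11.3 in replicate 1 and 10.6 in replicate 2, also under its highest member. Alas2 had no shared promoter region, alone among the 46 red cell genes with a member.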

How the data were processed

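Peaks, FDR values and footprints were derived by the authors from the filtered alignment of each library on mm10, going by the deposited notes. Each deposited peak carries a signal value of unstated scale. The deposited FDR values are under 0.05, and every deposited footprint line carries a p-value or FDR of 0.01. No aligner or caller is named there.

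The longer peak list of each library was used. Signal values were whole multiples of a step (0.0127 in replicate 1, 0.00604 in replicate 2) in 100% of peaks, at a tolerance of 0.05 of a step. The number of steps was taken as the count behind a value, and Poisson and Wilson intervals (95%) cover counting error only. A region's value in a library is that of its highest peak. The longest transcript is the protein-coding one of greatest spliced length in GENCODE vM21. Starts and exons came from every transcript of a protein-coding gene. Words were sought on both strands of GRCm38.p6 from RefSeq, which also gave the printed sequences and the promoters. Python 3.11.15, pandas 2.3.3, numpy 2.4.6 and scipy 1.17.1 were used. Merging, classes and the word search were tested on simulated data.

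The members, gene lists and words were chosen with earlier results of these data known. The text names the 15 genes with most members, the 10 highest members of unrepeated sequence with those of repeated sequence above them, list genes with a member, and the 3 largest ratios each way at 50 or more counts in both libraries. Some genes this rule names are not reported here. Rbm20, Slc44a5, Agrp, Gse1 and Piezo1 were named after their values were seen, as were the marker promoters and the genes picked for printed sequences. With 1 group of 2 libraries no test was made. Alternatives covered the peak list, overlap, distance from starts, transcript choice, unrepeated sequence and single libraries.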

Additional observations from a re-analysis of the deposited data

How the results depend on the processing

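Of 75 values under 11 alternative settings, 42 stayed within 1.5 times the main count or inside the 95% interval of the main value. The shorter peak lists left 1792 members in 1242 genes, 5.463% of shared regions, with a common footprint in 76.51% and a member in 34.31% of red cell genes. The upper 50% of peaks by value left 1655 members in 1036 genes (5.691%), a common footprint in 78.73% and a median ratio of 1.366. A reciprocal overlap of at least 50% gave 6.43% of shared regions, a GATA word in 40.18%, a common footprint in 66.12%, 35.29% of red cell genes and a ratio of 1.258. A distance of more than 2.5 kb from every start gave 4.927% of shared regions, 44.2% with a GATA word, 61.25% with a common footprint, 27.45% of red cell genes and a ratio of 1.324. First introns taken from the transcript of largest genomic span held 7.323% of shared regions, and those of any protein-coding transcript 9.328%. Settings chosen after seeing the data left 6.511% without the first intron of Gm20388 and 6.24% without first introns that hold the start of another protein-coding gene. Peaks of 1 library alone, with replicate 1 or replicate 2 left out, gave 5544 to 6606 members, 7.744% to 8.763% of regions, 2698 to 3339 genes and a footprint of that library in 64.24% to 80.57%. A GATA word was in 32.25% without replicate 1 and in 48% without replicate 2. Of the 15 genes with most members, here with Gm20388 among them, 7 kept a number within 1.5 times under the shorter lists and 8 under the upper 50% of peaks. The causes were not tested. No paired analysis was possible because there is 1 group. The count behind a member, with medians of 95 in replicate 1 and 149 in replicate 2, limits what can be read from its ratio.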
